A study of Mus musculus x Mus spretus with 8 samples.

Results

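Patski fibroblasts labelled Pygo1 -/- were set against Patski fibroblasts labelled Rlim -/-, gene by gene, with 2 RNA-seq libraries on each side. These are 4 of the 8 libraries of the series, taken by their labels. The contrast holds no wild-type library. The remaining libraries are 2 of unedited Patski cells (WT) and 2 labelled Stc1 -/-, which entered the estimate of spread. Patski is a line of female mouse fibroblasts from a cross of C57BL/6 with SPRET/EiJ (Mus spretus), so a read that covers a parental difference can be given to genome 1 or genome 2. All 8 libraries come from cells grown in the same medium, with no treatment named. The series description calls the knockouts independent mutants, but the labels say neither which edit each line carries nor which parent is genome 1. The p-values therefore measure the spread between these libraries.

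Pygo1 encodes a PHD-finger protein that binds BCL9 and methylated histone H3, and through them joins beta-catenin on Wnt target genes. Rlim, on the X chromosome, encodes a RING-type E3 ubiquitin ligase that marks LIM-domain cofactors and the pluripotency factor REX1 for degradation. In mouse, degradation of REX1 raises Xist, the long noncoding RNA that coats the X chromosome to be silenced. In a fibroblast line that silencing is already established, and the same X is kept silent in each daughter cell.

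Total gene counts ran from 74346218 to 79145436 in the 4 compared libraries, of which 52.0 to 52.6% could be assigned to a genome. Mitochondrial genes took 6.12 to 6.67%. The pairs were unequally tight: in the 10445 genes that averaged 5 CPM or more (CPM, the read count scaled to library size), replicates of a pair differed by a median of 0.19 log2 units in size for the Pygo1 label, 0.06 for the Rlim label, 0.10 for WT and 0.35 for the Stc1 label. Of these genes 250 differed over 2-fold within the Pygo1-labelled pair and 0 within the Rlim-labelled pair, which still differed by more than sampling noise (median chi-square 1.78 per gene, against 12.7 for the Pygo1-labelled pair). The labels do not say whether the Rlim-labelled libraries come from separate cultures or lines, so that pair may hold technical spread alone, and each p-value is read with that limit. Of the fibroblast markers, Fn1 and Vim were abundant, Thy1, Lum, Fap and Col1a2 lay under 0.2 CPM in the 4 libraries, and 6 of 12 lay under 1 CPM. The kidney tubule genes Pax2, Pax8, Cdh16 and Lrp2 were at 455 to 1619.8 CPM, so the label of a fibroblast was met by part of its markers. The fibroblast sum was 5106 and 5412 CPM under the Pygo1 label and 2446 and 2461 under the Rlim label, with Fn1 taking most of it. The smooth muscle sum was 283 and 739 CPM against 442 and 455 CPM. The part of cell composition in the results was not tested.

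The targeted genes were read first. Pygo1 (chromosome 9, 72925645 to 72952181, GRCm38) was at 2.50 and 0.674 CPM under the Pygo1 label, against 3.15 and 2.62 CPM under the Rlim label and 2.49 and 2.44 CPM in WT. Rlim (chromosome X, 103957163 to 103981284) was at 53.1 and 34.2 CPM under the Pygo1 label, against 71.9 and 64.2 CPM under the Rlim label and 57.2 and 51.4 CPM in WT. Rlim RNA was thus higher under its own label than under the Pygo1 label or in WT, and Pygo1 RNA lay under the WT values in Pygo1-labelled replicate 2 and not in replicate 1. Neither gene differed past the test. The log2 fold changes (Pygo1-labelled over Rlim-labelled) were -0.86 ± 0.84 for Pygo1 and -0.64 ± 0.37 for Rlim (SE, n = 2 per group, edgeR quasi-likelihood test, Benjamini-Hochberg adjusted p = 0.671 and 0.452). The Pygo1 value was -2.09 without Pygo1-labelled replicate 1 and -0.20 without replicate 2, in either case from a lone library taken to vary like the others. A count per gene cannot show an edit that spares the RNA, so the groups are named by label throughout, and a direction is a direction between pairs so labelled.

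Xist (chromosome X, 103460366 to 103483254) was at 390 and 351 CPM under the Pygo1 label, against 631 and 613 CPM under the Rlim label and 783 and 759 CPM in WT. The Stc1-labelled libraries held 850 and 440 CPM, the widest pair of any group. The Pygo1-labelled libraries were lowest. Both lay below both Rlim-labelled ones, as did those of 29.6% of all genes tested. The log2 fold change of -0.75 ± 0.28 did not pass (edgeR, adjusted p = 0.255). It passed in edgeR without the Stc1-labelled libraries (adjusted p = 0.00349) or with the 4 compared libraries alone (0.0274). Tsix overlaps Xist on the other strand, and the sources used here do not give the strand setting, so reads of the pair cannot be told apart. Genome 1 gave 99.5 to 99.6% of the Xist reads with a genome in the Pygo1-labelled libraries and 99.1 to 99.6% under the Rlim label.

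Across the genome, 104 genes rose (0.583% of those tested) and 78 fell (0.437%) under the Pygo1 label relative to the Rlim label. These 182 genes are 1.02% of the 17839 tested (edgeR quasi-likelihood test over all 8 libraries, adjusted p under 0.05). The change was at least 2-fold for 84 that rose and 67 that fell, and at least 4-fold for 46 and 55. None of the 182 had overlapping groups, but neither had 58.3% of all genes tested (28.7% with the Pygo1-labelled libraries higher and 29.6% with them lower). The median log2 fold change over all genes was 0.0039. WT lay nearer to the Rlim-labelled mean for 67 of the 104 genes that rose, and nearer to the Pygo1-labelled mean for 48 of the 78 that fell. The count depends on which libraries share the estimate of spread. Without the Stc1-labelled libraries 1379 genes were called higher and 1062 lower (2441 of 17534, 13.9%), among them all 182, and DESeq2 called 1003 of 18403 (5.45%), likewise with all 182. Without either Rlim-labelled replicate 7 genes passed, without either WT replicate 21, and 94 did without Pygo1-labelled replicate 2. In the account that follows, "rose" and "fell" refer to the 182.

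**Figure D1:**
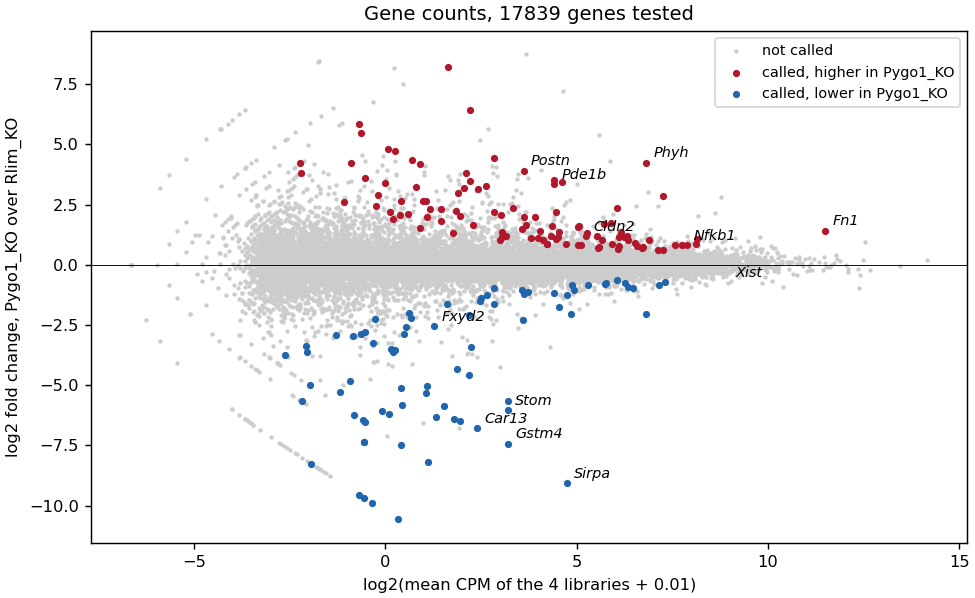
Each point is a gene tested, at its mean level over the 4 libraries (horizontal, log2 of CPM + 0.01) and its log2 fold change of Pygo1-labelled over Rlim-labelled libraries (vertical). Called genes are coloured, 104 higher and 78 lower, and Sirpa, Gstm4, Car13 and Stom lie below the other genes named in the plot.

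The largest rises included Phyh, Mlxipl and Adh7. Phyh, the peroxisomal hydroxylase that starts the breakdown of phytanic acid (chromosome 2, 4919019 to 4938730), was at 119 and 312 CPM under the Pygo1 label and 11.4 CPM in each Rlim-labelled library. It rose 18.8-fold (log2 4.24 ± 0.55, edgeR adjusted p = 0.0284), with Pygo1-labelled replicate 2 well above replicate 1. Mlxipl, the glucose-responsive transcription factor ChREBP, was at 8.85 and 18.7 CPM against 0.721 and 0.540 CPM and rose 21.8-fold. A gene on the other strand overlaps it. Adh7, a retinol-oxidizing alcohol dehydrogenase, was at 28.3 and 61.1 CPM against 3.85 and 4.27 CPM and rose 11-fold, again beside an overlapping gene. In WT, Mlxipl and Phyh lay near the Rlim-labelled values (1.04 and 1.18 CPM, and 7.88 and 8.40 CPM), while Adh7 lay between the groups.

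Postn, Ecm1, Gpnmb and Rassf4 also rose. Postn, the matricellular protein periostin (chromosome 3, 54361109 to 54391037), was at 14.4 and 31.7 CPM under the Pygo1 label and 1.51 and 1.57 CPM under the Rlim label (log2 3.90 ± 0.39, edgeR adjusted p = 0.0149), with WT between at 7.92 and 6.70 CPM. Ecm1, a secreted matrix glycoprotein, was at 89.9 and 134 CPM against 22.3 and 21.4 CPM and rose 5.13-fold. Gpnmb, a transmembrane glycoprotein of melanosomes and lysosomes, was at 344 and 193 CPM against 38.4 and 35.6 CPM and rose 7.26-fold. In total level of Gpnmb the Rlim-labelled libraries stood apart, since WT held 244 and 248 CPM. By genome both groups differed from WT. Gpnmb reads with a genome were 2.10 and 1.75% genome 1 in WT, against 76.1 and 93.1% under the Pygo1 label. Genome 1 gave 303 and 269 reads in WT, 14906 and 9085 under the Pygo1 label and 1897 and 1748 under the Rlim label. Rassf4, of the Ras-association family, was at 10.6 and 11.8 CPM against 1.19 and 1.12 CPM, and here WT was above both groups at 38.6 CPM in each library. The Pygo1-labelled replicates of Rassf4 differed by genome, with 35.7 and 99.3% of reads from genome 1. Its share was 90.9 and 93.3% under the Rlim label and 5.09 and 5.47% in WT.

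Pde1b, a calmodulin-dependent cyclic nucleotide phosphodiesterase (chromosome 15, 103503034 to 103530052), showed the reverse placing of WT. It was at 32.4 and 45.2 CPM under the Pygo1 label, 3.85 and 3.73 CPM under the Rlim label and 1.34 and 1.82 CPM in WT, and rose 10.2-fold (log2 3.36 ± 0.25, edgeR adjusted p = 0.00473). Tmem72 was at 18.4 and 15.5 CPM against 3.20 and 3.47 CPM and rose 5.08-fold. Pdlim2, a PDZ and LIM domain protein, was at 24.1 and 24.2 CPM against 5.79 and 6.23 CPM, the closest Pygo1-labelled pair among these genes in total level. By genome that pair was not alike, with 64.2% of reads from genome 1 in replicate 1 and 10.1% in replicate 2. The rest of the 15 largest rises were Selenop, the plasma carrier of selenium, Dglucy, a D-glutamate cyclase, Ankrd13c, Ugt1a7c and Pcdhgb5, at 3.34-fold to 4.62-fold. Ugt1a7c and Pcdhgb5 share exons with the other genes of their clusters, and genes on the other strand overlap Selenop and Dglucy, so their counts are uncertain.

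**Figure D2:**
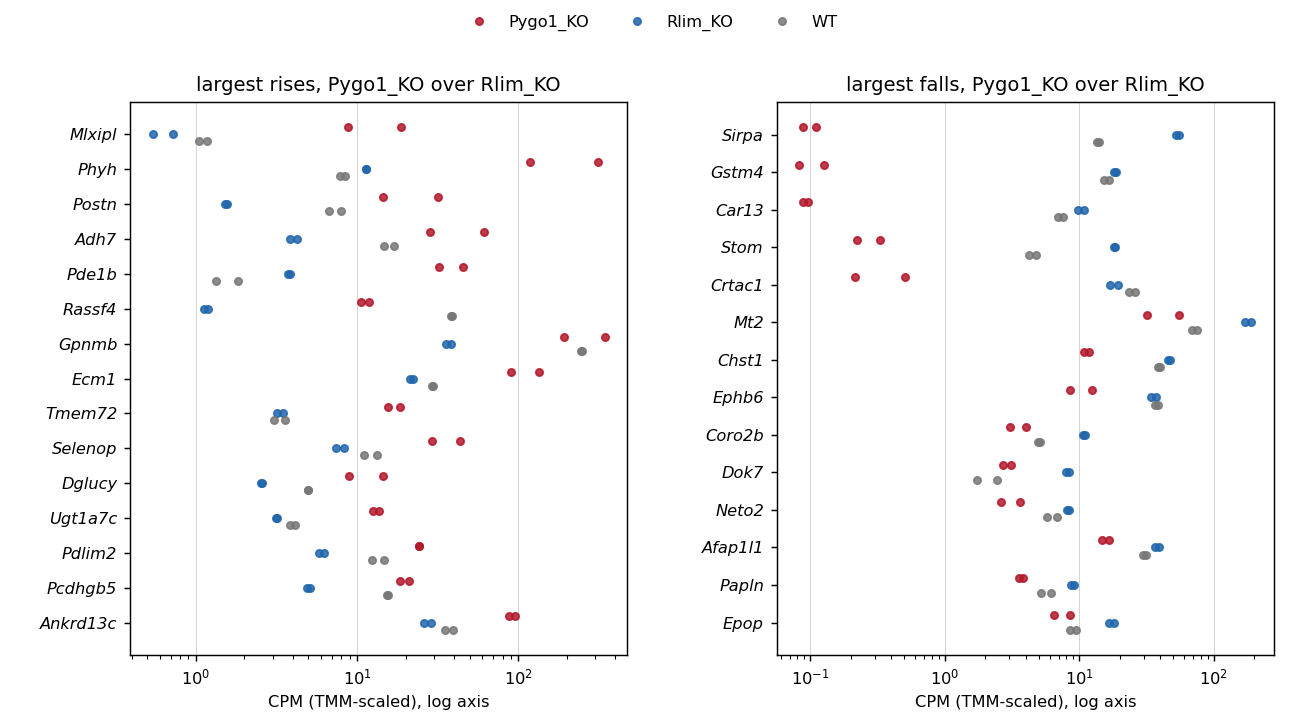
Each row is a gene and each point a library, at its TMM-scaled CPM on a log axis, for the 15 largest rises (left) and 14 of the 15 largest falls (right). Genes were picked for having no overlap between the libraries labelled Pygo1_KO and Rlim_KO, which 58.3% of all genes tested lack too. The 4 genes Sirpa, Gstm4, Car13 and Stom lie under 0.4 CPM in both Pygo1-labelled libraries.

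The falls were led by genes that were close to absent under the Pygo1 label. Sirpa, the receptor for CD47 (chromosome 2, 129592835 to 129632228), was at 0.0881 and 0.110 CPM under the Pygo1 label against 52.2 and 54.8 CPM under the Rlim label, and 13.6 and 13.9 CPM in WT. It fell 533-fold (log2 -9.06 ± 0.20, edgeR adjusted p = 1.32e-05). Stom, the membrane protein stomatin (chromosome 2, 35313986 to 35336976), was at 0.327 and 0.220 CPM against 18.1 and 18.3 CPM and fell 65.8-fold. For Sirpa and Stom the Rlim-labelled libraries lay above WT, so both groups stood away from it on opposite sides. Sirpa and Stom were also low in the Stc1-labelled libraries, at 0.111 to 0.222 CPM.

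Gstm4, a glutathione transferase (chromosome 3, 108040408 to 108044894), was at 0.126 and 0.0826 CPM under the Pygo1 label against 18.2 and 18.7 CPM under the Rlim label. It fell 173-fold (log2 -7.43 ± 0.34, edgeR adjusted p = 0.000538), though near copies of it lie in the same cluster. Car13, a cytosolic carbonic anhydrase (chromosome 3, 14641727 to 14663002), was at 0.0881 and 0.0963 CPM against 10.9 and 9.84 CPM and fell 111-fold. In WT both genes lay nearer to the Rlim-labelled level. Crtac1, a secreted acidic protein of cartilage (chromosome 19, 42283035 to 42431783), was at 0.214 and 0.509 CPM against 16.9 and 19.3 CPM and fell 50.3-fold. An overlapping gene on the other strand makes its count uncertain.

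The other large falls described here were of 2.29-fold to 4.17-fold. Mt2, a zinc-binding metallothionein, was at 31.8 and 54.6 CPM under the Pygo1 label against 190.2 and 170.0 CPM under the Rlim label, with WT between at 68.6 and 74.5 CPM. Chst1, a keratan sulfate sulfotransferase, was at 10.8 and 11.8 CPM against 45.7 and 47.0 CPM. Mt2 was high in the Rlim-labelled libraries relative to WT, whereas Chst1 was nearer to WT there. Ephb6, a kinase-dead Eph receptor, followed the pattern of Chst1 at 8.48 and 12.5 CPM against 34.3 and 37.1 CPM. Coro2b and Afap1l1, which bind actin, Dok7, an adaptor of the muscle kinase MuSK, Neto2, an auxiliary subunit of kainate receptors, Papln, a matrix protein, and Epop, a Polycomb-associated protein, also fell. Mt2, Neto2 and Afap1l1 overlap a gene on the other strand.

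Reads with a genome were then compared for these genes. In the Rlim-labelled libraries, 93.6% of the Sirpa reads and 88.9 to 93.8% of the Stom reads came from genome 1. The Gstm4 reads were 4.54 to 6.99% genome 1 and the Car13 reads 11.9 to 13.3%, so genome 2 gave nearly all of them. Each of these genes was thus read mainly from a single genome where it was present. The rises varied in this respect. Pde1b was 88.1 and 86.05% genome 1 under the Pygo1 label against 16.7 and 12.4% under the Rlim label, Phyh was 20.95 and 20.1% genome 1 against 57.6 and 53.1%, and Postn was 91.5 and 90.01% against 88.0 and 80.5%.

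**Figure D3:**
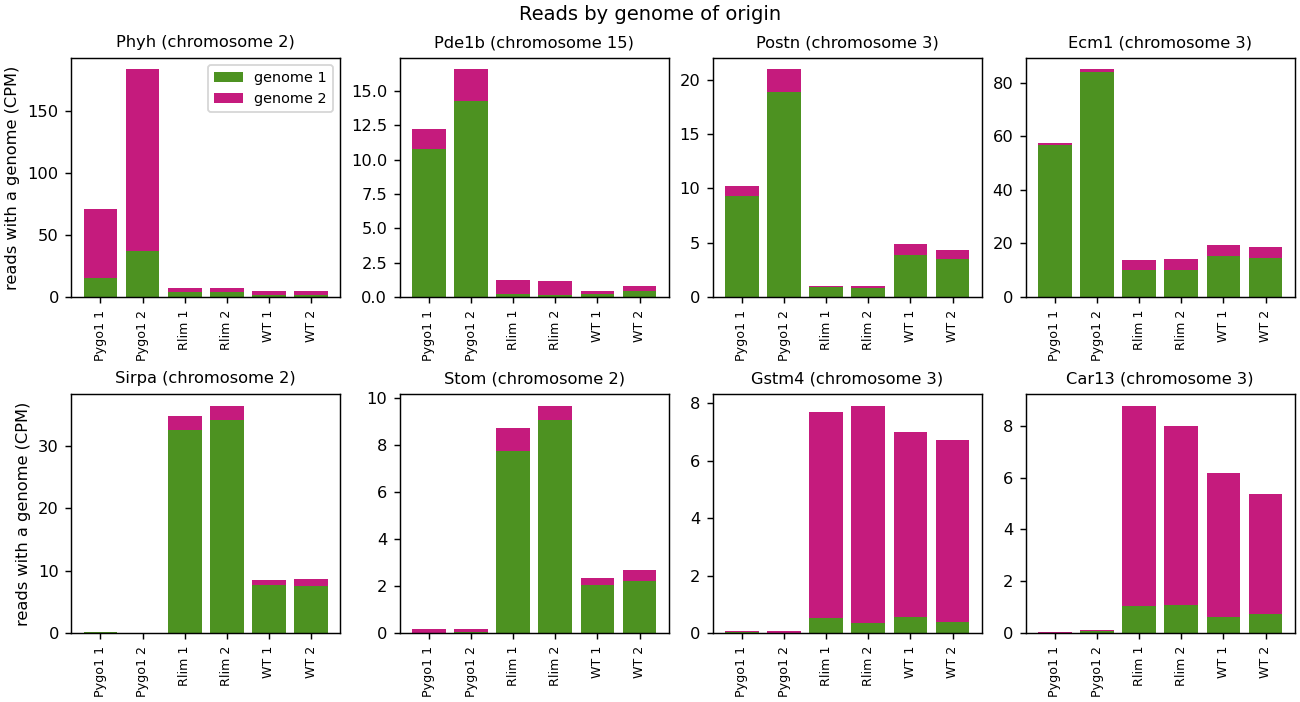
Bars give reads assigned to genome 1 and genome 2 as CPM (TMM-scaled), stacked, in the 2 Pygo1-labelled, 2 Rlim-labelled and 2 WT libraries. Sirpa and Stom are mainly genome 1, and Gstm4 and Car13 mainly genome 2, in the Rlim-labelled libraries, and all 4 are near 0 under the Pygo1 label.

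The share of genome 1 was next tested for each gene. Over 12476 genes in which each library held 20 or more reads with a genome, the share differed in 1984 (15.9%), being higher under the Pygo1 label for 1120 (8.98%) and lower for 864 (6.93%) (edgeR quasi-likelihood test on the odds of genome 1, adjusted p under 0.05). Of the 864, 817 lay on chromosome 2. Of the 1120, 424 lay on chromosome 3, 323 on chromosome 8, 232 on chromosome 19, 51 on chromosome 15 and 46 on chromosome 13. Neighbouring genes on a chromosome share its copies and are not independent. Without Pygo1-labelled replicate 1 the share differed in 3406 genes.

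On chromosome 2 nearly all reads of the Pygo1-labelled libraries came from genome 2. The median genome 1 share over 955 genes (chr2:3114224-181870830) was 1.61 and 1.30% in them, against 23.6 and 23.4% under the Rlim label and 6.86 and 7.06% in WT. The Stc1-labelled libraries held 1.35 and 1.36%, close to the Pygo1-labelled ones. The Rlim-labelled pair thus lay above WT, and the Pygo1-labelled and Stc1-labelled pairs below it. On a scale of log2(CPM + 0.1), the median difference in genome 1 level was -2.57 and that in genome 2 level 0.25. The level of all reads had a median log2 fold change of -0.05 over 1390 genes. Of the 1390, 4 rose and 27 fell, or 2.23% called, against 1.02% of all genes. At least 20 reads with a genome were found in both Rlim-labelled libraries for 25 of the 27 genes that fell. Of these 25, 16 were at least 80% genome 1 there. The same count over the genes of the chromosome that did not fall is not given here. The 16 therefore have no background to be read against, and a link between share and fall was not tested. A count of RNA does not tell a missing chromosome from a silent one.

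Of the 5 genes of chromosome 2 with the largest difference in share, Kcnip3 alone passed the test of level. Genes with fewer than 20 reads with a genome in any library, such as Sirpa, Stom and Fgf7, could not enter the share test, so genes nearly absent under the Pygo1 label were left out of this choice. Olfm1, a secreted olfactomedin of neurons, was 2.51 and 1.89% genome 1 under the Pygo1 label against 87.5 and 85.2% under the Rlim label, and its level had a log2 value of -0.32 (edgeR, adjusted p = 0.647). Dpp7, a lysosomal dipeptidyl peptidase, was 1.28 and 1.08% against 80.3 and 79.0%. Rpl7a, a protein of the large ribosomal subunit, was 3.32 and 4.98% against 71.7 and 68.8%, with a log2 fold change in level of -0.19 (adjusted p = 0.803). Ube2l6, the conjugating enzyme of ISG15, was 0.242 and 0% against 56.7 and 62.1%, where 0 of 588 reads allows up to 0.51%. The log2 fold change in level was -0.92 for Dpp7 and -0.50 for Ube2l6 (edgeR adjusted p = 0.625 and 0.632). For these 4 genes the level did not pass, which with n = 2 per group does not show it unchanged. Passing the share test was a condition of the choice. Kcnip3, a calcium-binding regulator of potassium channels, had no genome 1 read in either Pygo1-labelled library (0 of 48 and 0 of 29, which allow up to 6.25 and 10.3%) against 62.4 and 60.9%, and its level fell (log2 -2.02, edgeR adjusted p = 0.0405).

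On chromosome 3 nearly all reads of the Pygo1-labelled libraries came from genome 1. From chr3:5560188-109168457 the median genome 1 share over 475 genes was 99.8% in each Pygo1-labelled library, against 71.9 and 71.7% under the Rlim label and 76.6 and 76.0% in WT. On the same log2 scale the median difference in genome 2 level was -3.90 and that in genome 1 level 0.66. The level of all reads had a median log2 fold change of 0.18 over 721 genes, of which 9 rose and 5 fell (1.94% called). Genes differed by how they used the genomes in WT, a measure taken outside the contrast. The 65 tested genes with at least 90% genome 1 in WT had a median log2 fold change in level of 0.77, and 49 of them had both Pygo1-labelled libraries above both Rlim-labelled ones, as had 28.7% of all genes. The 428 that used both genomes had a median of 0.16, and the 14 mainly from genome 2 a median of -0.05. Fam198b was 99.8 and 100% genome 1 under the Pygo1 label against 20.4 and 14.2% under the Rlim label, and Sema4a, a semaphorin, 99.4 and 99.9% against 29.4 and 30.4%. Neither differed in level past the test (log2 1.21 and -0.0056, edgeR adjusted p = 0.137 and 0.996).

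In the distal part of chromosome 3 (chr3:109340653-159938664) all 4 libraries read genome 1 nearly alone, at 99.7 to 99.9%, and WT did so at 98.8%. Levels were higher there in the Pygo1-labelled libraries, with a median log2 fold change of 0.60 over 252 genes, of which 11 rose and 0 fell (4.37% called). The 11 include Nfkb1, Adh7 and Ankrd13c. Of these, Nfkb1 and Adh7 departed from the median share, at 83.4 to 85.7% genome 1 in the 4 libraries. Levels thus differed along a stretch that both groups read mainly from genome 1. On chromosome 19 the median share was 92.3 and 99.6% genome 1 under the Pygo1 label and 77.3 and 77.1% under the Rlim label, and the pattern was broken along the chromosome: replicate 1 kept genome 2 reads in its first part and replicate 2 in a shorter stretch. Levels there had a median log2 fold change of -0.0026 over 579 genes, with 3 that rose and 1 that fell (0.691% called). Pik3ap1, an adaptor of PI3 kinase, was 99.3 and 100% genome 1 on chromosome 19 against 17.5 and 17.9%, and Plekhs1 100 and 99.3% against 20.7 and 32.4%. In level Pik3ap1 and Plekhs1 had log2 values of -1.49 and -0.45 and did not pass (edgeR adjusted p = 0.236 and 0.359).

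**Figure D4:**
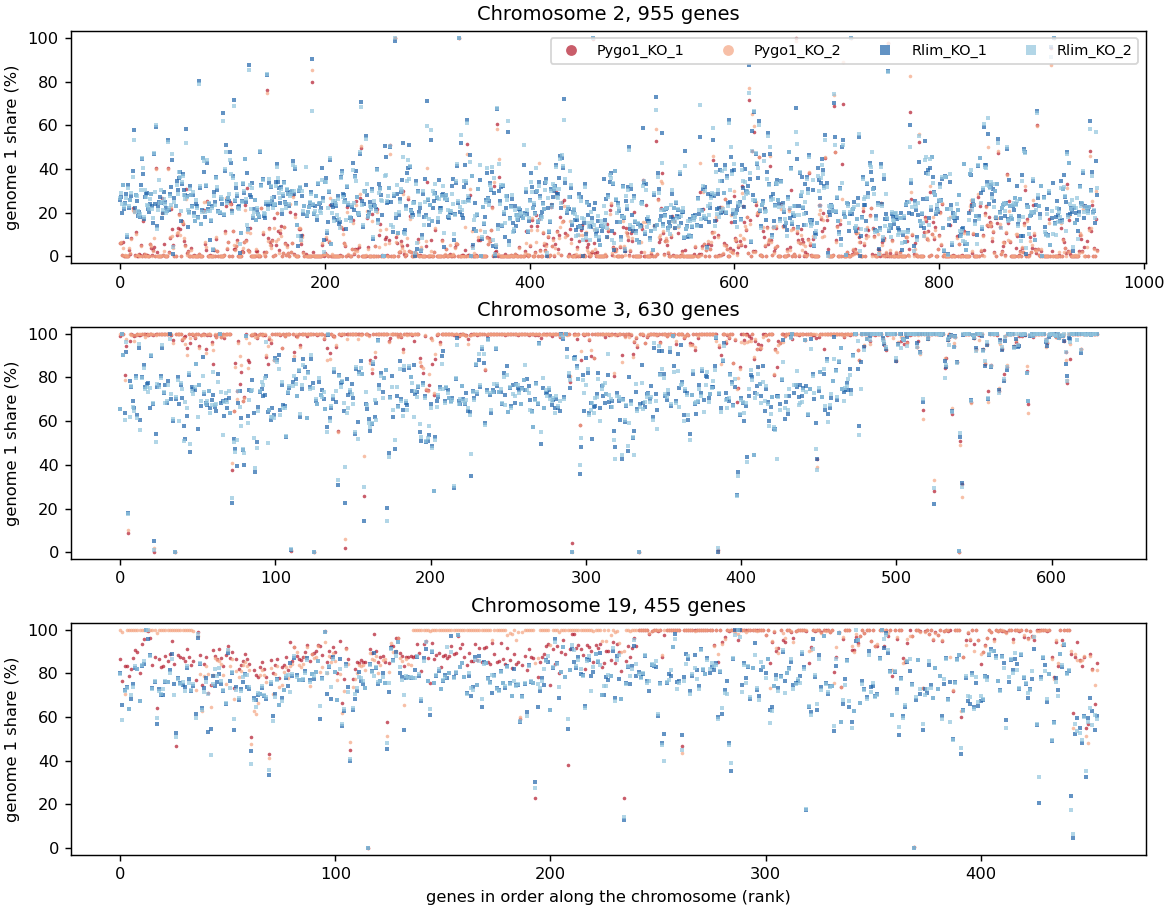
Each point is a gene in a library, in order along chromosomes 2, 3 and 19 (horizontal, rank) with the percentage of its reads from genome 1 (vertical). The Pygo1-labelled libraries lie near 0% on chromosome 2 and near 100% on chromosome 3, where the Rlim-labelled libraries lie near 23% and 72% and join them in the distal part of chromosome 3.

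Other chromosomes differed between the Pygo1-labelled replicates. On chromosome 5 the median share was 78.1 and 99.8% genome 1 under the Pygo1 label against 73.2 and 73.4% under the Rlim label. On chromosome 14 it was 99.2 and 50.9% against 67.5 and 66.9%. The replicates of the Pygo1 label therefore cannot be taken as copies of each other on these chromosomes. Chromosome 6 read genome 1 at 95.0 and 99.8% under the Pygo1 label and 99.7 and 99.8% under the Rlim label, where WT had 72.2% in each library. Chromosome 8 was 69.8 and 70.5% against 52.5 and 52.0%, and chromosome 15 50.7 and 46.1% against 33.0 and 33.2%. Chromosomes 4 and 11 were mainly genome 2 and chromosome 9 mainly genome 1 in all 8 libraries. Outside the 3 stretches of chromosomes 2, 3 and 19, 88 genes rose and 45 fell of 15059 (0.883% called).

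Levels were also read in order along the chromosomes, over genes that averaged 5 CPM or more. Of 217 windows of 10 Mb with at least 15 such genes, 7 had a median log2 fold change of at least 0.5 and 4 of -0.5 or less, around a median window of -0.02. Windows were singled out by their values and carry no test. On chromosome 13 from 90000001 to 120000000, 102 genes had a median of 0.68, at 0.87 and 0.45 for the Pygo1-labelled replicates over the Rlim-labelled mean. There 9 of 157 genes tested rose and 0 fell, where 0.583% of all genes tested rose. A stretch picked for high values holds more rises by that choice. The rest of the chromosome had a median of -0.04. The 9 include Il6st, the shared signalling chain of the IL-6 receptors, and Enc1 and Snx18, named after their values were seen. Il6st averaged 384 CPM under the Pygo1 label against 183 CPM under the Rlim label.

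On chromosome 5 up to position 80000000, 248 genes had a median log2 fold change of -0.46, at -0.41 and -0.51 for the replicates. Beyond it 454 genes had a median of 0.06. All 13 falls of the chromosome lay in the stretch up to 80000000, among 458 genes tested with 0 rises. Over all genes tested 0.437% fell, and a stretch picked for low values holds more falls by that choice. Here the Pygo1-labelled libraries lay near WT (median log2 difference -0.03) and the Rlim-labelled ones above it (0.41). Pds5a, a cohesin regulator, Polr2b, a core subunit of RNA polymerase II, and Ube2k, a ubiquitin-conjugating enzyme, fell within it and were named after their values were seen. Pds5a averaged 56.3 CPM under the Pygo1 label, 107 under the Rlim label and 65.0 in WT.

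Over whole chromosomes the medians were smaller. The largest in size were 0.25 on chromosome 3, -0.26 on chromosome 14 and 0.20 on chromosome 15. The replicates lay at 0.11 and 0.35, -0.29 and -0.23, and 0.09 and 0.31 over the Rlim-labelled mean. Chromosome 15 held 12 rises and 0 falls among 689 genes (1.74% rose, against 0.583% of all genes tested). The X chromosome had a median of 0.06, made of 0.30 for Pygo1-labelled replicate 1 and -0.25 for replicate 2. No direction for the X as a whole was therefore shared by the replicates.

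**Figure D5:**
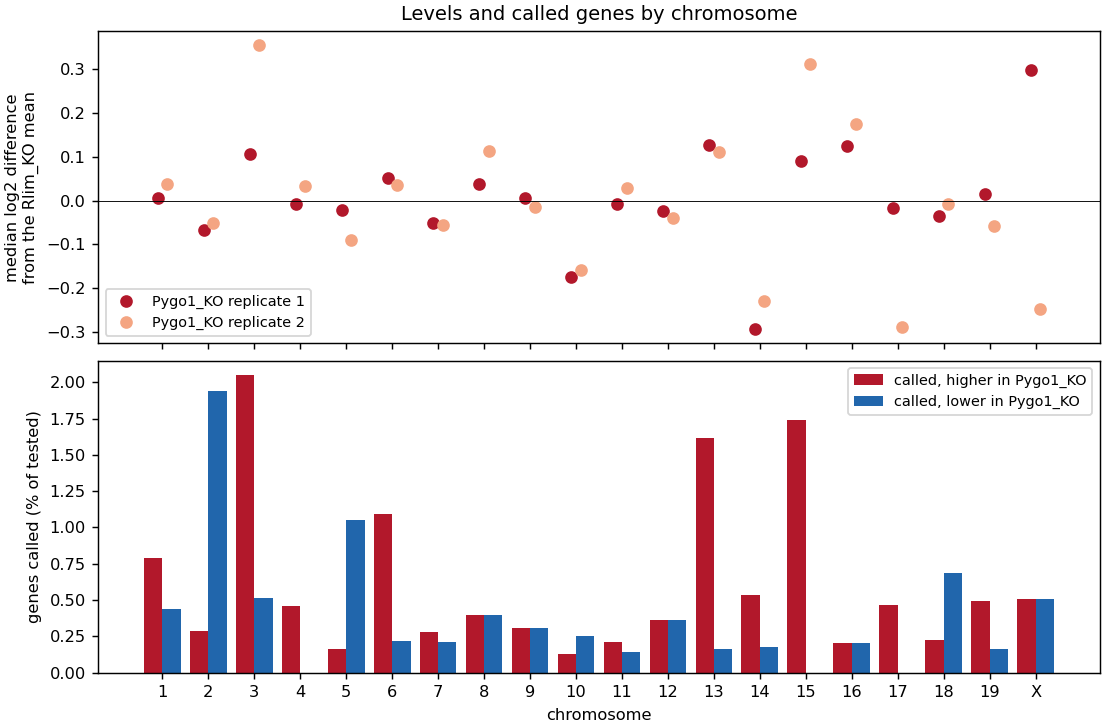
The upper panel gives, for each chromosome, the median log2 difference of each Pygo1-labelled library from the mean of the Rlim-labelled ones, and the lower panel the percentage of tested genes called in each direction. Chromosomes 3, 13 and 15 stand out for rises and 2 and 5 for falls, and the replicates part on the X chromosome.

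On the X chromosome 3 genes rose and 3 fell among 592 tested (1.01% called). Tspan7, a tetraspanin (chromosome X, 10485158 to 10596605), was at 95.1 and 95.4 CPM under the Pygo1 label against 44.0 and 42.1 CPM under the Rlim label (log2 1.14 ± 0.11, edgeR adjusted p = 0.0127). Cldn2, the cation-pore claudin of leaky epithelia, was at 51.4 and 53.6 CPM against 23.5 and 22.5 CPM and rose 2.28-fold. Tspan7 lay above WT in both groups and Cldn2 far below it, since WT held 133 and 132 CPM of Cldn2. Eda, the ligand ectodysplasin, was at 0.164 and 0.138 CPM against 1.44 CPM in each Rlim-labelled library, and Gspt2, a translation release factor, at 0.239 and 0.0963 CPM against 2.23 and 1.95 CPM. Both fell, by 9.46-fold and 12.3-fold. The X was read from genome 2: the median genome 1 share over 358 genes was 0.429 and 0.164% under the Pygo1 label and 0.486 and 0.391% under the Rlim label. Of these genes 257 and 256 lay under 5% genome 1 against 252 and 250, and the share test called 1 gene higher and 2 lower.

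Genes were then taken by function in 23 lists. Of 679 distinct members measured, 6 rose and 7 fell, against 1.02% called over all genes. Without the Stc1-labelled libraries 106 were called higher and 66 lower of 675, against 13.9% of all genes. From the lists with a call, 22 members are named that did not pass over all 8 libraries. Of these 21 passed in that fit, Nfkbiz being the exception (edgeR adjusted p = 0.0584). They were picked for the smallest adjusted p in the same counts, so passing in a fit with more calls is no separate support. In the list of complement components and regulators 0 of 18 rose and 2 fell, and the fit without the Stc1-labelled libraries called 3 higher and 4 lower. Serping1, the C1 inhibitor, was at 0.126 and 0.0688 CPM under the Pygo1 label against 4.05 and 4.02 CPM under the Rlim label, and fell 40.5-fold. It was low in WT too, at 0.117 and 0.150 CPM, so for it the Rlim-labelled libraries were the high ones. The members Cd55 (log2 1.38, adjusted p = 0.114) and C1qtnf6 (1.23, 0.154) did not pass in edgeR.

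Among 42 growth factors and their receptors 0 rose and 2 fell (4.76%, against 1.02% of all genes). The fit without the Stc1-labelled libraries called 8 higher and 8 lower, against 13.9% of all genes called. Fgf7, the keratinocyte growth factor (chromosome 2, 126034658 to 126091185), was at 0.516 and 0.165 CPM under the Pygo1 label, 6.96 and 7.04 CPM under the Rlim label and 0.586 and 0.313 CPM in WT. Its reads were 94.6 and 95.6% genome 1 under the Rlim label. Fgfr3, a receptor tyrosine kinase, was at 9.29 and 7.29 CPM against 17.5 and 18.7 CPM. It overlaps another gene and fell 2.18-fold. Igfbp3 and Fgf10 had log2 values of 2.66 and 1.61 and did not pass in edgeR (adjusted p = 0.0546 and 0.121), but did without the Stc1-labelled libraries (0.00118 and 0.0386).

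Among 44 collagens and other matrix genes 2 rose, Postn and Fn1, and 0 fell (4.55%, against 1.02% of all genes). Fn1, which encodes fibronectin (chromosome 1, 71585520 to 71653200), was at 3808 and 4562 CPM under the Pygo1 label against 1545 and 1593 CPM under the Rlim label, with WT between at 2230 and 2343 CPM. It rose 2.67-fold (log2 1.42 ± 0.15, edgeR adjusted p = 0.0175), though an overlapping gene shares its position. The median of the list was 0.30, and 19 of the 44 lay higher in both Pygo1-labelled libraries than in either Rlim-labelled one, as did 28.7% of all genes. Fbln1 and Vcan had log2 values of 1.17 and 2.22 without passing (edgeR adjusted p = 0.109 and 0.172).

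The kidney tubule and nephric list had 1 rise, Cldn2, and 1 fall, Fxyd2, among 33 (6.06%, against 1.02% of all genes). Fxyd2, the gamma subunit of the sodium pump in tubules (chromosome 9, 45399669 to 45410278), was at 0.705 and 0.702 CPM under the Pygo1 label against 4.34 and 3.88 CPM under the Rlim label, and fell 5.83-fold (log2 -2.54 ± 0.14, edgeR adjusted p = 0.00128). Both lay far under WT, at 73.3 and 79.6 CPM. Pax2, a transcription factor of the nephric lineage on chromosome 19, was at 725 and 649 CPM against 1124 and 1158 CPM and did not pass (log2 -0.73, edgeR adjusted p = 0.0504). Its reads were 99.8% genome 1 in each Pygo1-labelled library against 80.8 and 81.1% under the Rlim label. Eya1, a phosphatase and coactivator of kidney development, was at 15.9 and 21.9 CPM against 6.72 and 6.49 CPM and did not pass either (log2 1.51, edgeR adjusted p = 0.0882). Cldn2 was also the only member of the 27 junction and adhesion genes to pass, and Epcam (log2 -1.78), Cdh11 (1.996) and Cdh13 (0.75) did not.

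The signalling and NRF2 lists had at most a few calls each, 2.5 to 5.88% of members against 1.02% of all genes. Of 38 TGF-beta and BMP genes, Gdf6, a BMP-family ligand, rose to 1.17 and 2.88 CPM under the Pygo1 label, against 0.0524 and 0.0899 CPM under the Rlim label. Id2, a BMP-induced inhibitor of helix-loop-helix factors, was at 21.8 and 19.997 CPM against 39.0 and 36.4 CPM and fell 1.80-fold. Gdf6 and Id2 thus moved in opposite directions, and Bmpr1a (log2 -0.57) and Inhbb (3.11) did not pass, but did without the Stc1-labelled libraries (edgeR adjusted p = 0.0244 and 0.000181). Of 35 Wnt genes, Cd44, the hyaluronan receptor and a Wnt target, was at 226 and 256 CPM against 139 and 133 CPM and rose 1.77-fold. Myc, Fzd1 and Fzd6 had log2 values of 0.51 to 0.54 and did not pass. Of 17 NF-kB subunits and inhibitors, Nfkb1, the p105 precursor, was at 305 and 294 CPM against 174 and 167 CPM and rose 1.76-fold. It lies in the distal stretch of chromosome 3, and Birc3 (log2 1.36), Tnfaip3 (0.78) and Nfkbiz (-0.30) did not pass. Of 40 NRF2 and glutathione genes Gstm4 fell alone, while its neighbours Gstm5 and Gstm6 had log2 values of 0.82 and 1.06 without passing, and Tkt one of -0.51.

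No member of the other 14 lists passed in edgeR. Of their 397 distinct members 91 had an unadjusted p under 0.05, 45 higher and 46 lower (22.9%, against 16.2% of all genes), and DESeq2 called 32 (8.06%, against 5.45%). The 25 genes of the pygopus, BCL9 and beta-catenin complex had a median log2 fold change of -0.14, with Axin1 having the smallest adjusted p (0.234). The 16 RLIM and LIM-complex genes had a median of -0.23, and Lmo2, a LIM-only cofactor, had a log2 value of -3.76 (adjusted p = 0.0501). Without the Stc1-labelled libraries 1 of the 16 was called higher and 5 lower, against 13.9% of all genes called. The 35 genes of the X inactivation machinery had a median of -0.10. Of 43 interferon-stimulated genes 37 had a positive value (median 0.57), and 23 lay higher in both Pygo1-labelled libraries than in either Rlim-labelled one, as did 28.7% of all genes. The smallest adjusted p was that of Bst2, the antiviral tetherin (0.0765), at 86.2 and 90.4 CPM under the Pygo1 label against 45.0 and 48.4 CPM under the Rlim label. Without the Stc1-labelled libraries 15 interferon genes were called higher and 1 lower, against the same 13.9%.

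For the rest, chemokines had a median log2 fold change of 0.52 over 17 genes, acute-phase genes 0.67 over 16, contractile genes 0.05 over 29 and cholesterol genes 0.12 over 29. The stress genes of the ATF4 and unfolded protein response had 0.02 over 35, glycolysis and hypoxia genes 0.18 over 38, p53 targets -0.0014 over 28 and cell cycle genes -0.06 over 34. Hox genes had -0.21 over 33, and imprinted genes -0.29 over 24. Hp of the acute-phase list, which encodes haptoglobin, was at 23.5 and 4.43 CPM against 0.891 and 1.26 CPM (adjusted p = 0.199).

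A few genes had no read at all in the Pygo1-labelled libraries and were named after their values were seen. Bbs7, a subunit of the cilium-trafficking BBSome (chromosome 3, 36573142 to 36613477), had 0 and 0 reads against 197 and 188 under the Rlim label. It was at least 127-fold lower, counting 3 reads over the group as the limit that 0 allows. All 89 and 88 of its reads with a genome in the Rlim-labelled libraries were from genome 2. WT held 207 and 214 reads, so Bbs7 was absent under the Pygo1 label alone among the 4 groups. Scn3b, a sodium channel subunit, Prox1, a homeodomain factor, Rbbp8nl and the pseudogene Zfp133-ps were at least 78.6-fold, 62.2-fold, 67.4-fold and 25.3-fold lower. These 4 had at most 11 reads in either WT library, so relative to WT the Rlim-labelled libraries were the high ones, and Prox1 also had 89 and 47 reads under the Stc1 label.

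Of all 182 genes, 7 passed under each of the 19 other settings of the fit. Sirpa, Gstm4, Car13, Stom and Fxyd2 are the named genes among them, and Cplx2, a complexin of vesicle release, and the unnamed transcript 1810013D15Rik complete the set. Cplx2 averaged 0.366 CPM under the Pygo1 label against 8.76 CPM under the Rlim label, with WT at 7.82 CPM. 1810013D15Rik was the only rise of the 7, at a mean of 6.24 CPM against 0.0194 CPM.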

How the data were processed

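RNA was sequenced on an Illumina GAIIx from TruSeq libraries of 1 microgram, per the labels' protocols, in 4 groups of 2 libraries. The submitters' processing notes name HISAT2 2.0.5, Cufflinks, featureCounts and mm10, with no role or order. The table deposited by the authors holds raw read counts per Ensembl gene, for all reads and for those of genome 1 and genome 2. Annotation version, strand setting, multiple mapping and the genome-splitting tool are not given in the sources used here, and mapping to a single reference can favour a genome, so shares were compared between libraries only. Of 49670 genes 49411 matched GENCODE M21 (GRCm38), which gave symbols and positions.

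The gene test used edgeR 4.0.16 under R 4.3.3, TMM factors, the default expression filter, 1 mean per group and the quasi-likelihood test over all 8 libraries, with the Pygo1-labelled minus the Rlim-labelled mean as contrast (common biological coefficient of variation 24.6%). SE is the size of the log2 fold change over the square root of F. The genome test added a term per library and left out 329 genes whose genome reads exceeded all reads. Both were tested on simulated data. Named were the targets and Xist, the 15 largest rises and falls among called genes averaging at least 5 CPM without overlap of groups, for a list holding a call, at most 4 members in order of adjusted p, 4 X-linked genes and 5 genes per direction of share. Names of the Gm or Rik kind were passed over, and a few genes the rules select are not reported here. The libraries compared, lists and rules were chosen with earlier results of these data known. Stretches and windows were chosen after their values were seen. Alternatives were other scalings, filters, thresholds, DESeq2 1.42.0, other libraries in the fit, a replicate block and each library left out.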

Additional observations from a re-analysis of the deposited data

How the results depend on the processing

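The count of 182 genes stayed within 1.5 times under DESeq2 size factors, upper quartile scaling, library size alone, each chromosome scaled apart and a minimum of 1 CPM. With library size alone the split moved to 85 higher and 85 lower, from 104 and 78. The count was 519 with no filter, 74 against a fold of 1.5, 20 at an adjusted p under 0.01, 972 with the compared groups alone, 2441 without the Stc1-labelled libraries and 1003 with DESeq2. Leaving out each library in turn gave 7 to 2360. The lowest were 7 without either Rlim-labelled replicate and 21 without either WT replicate, and the highest were 2360 and 2359 without Stc1-labelled replicate 1 and 2. The lists' 13 calls became 42 with no filter, 8 against a fold of 1.5, 79 with the compared groups alone, 172 without the Stc1-labelled libraries, 70 with DESeq2 and 2 to 171 with a library left out. The 1984 genes of the share test became 1545 to 3406 with a library left out, and 2986 without Pygo1-labelled replicate 2.

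Xist lay at -0.75 with the compared groups alone and -0.75 without the Stc1-labelled libraries, past the threshold in both, and between -0.83 and -0.68 with a library left out. With each chromosome scaled apart, the medians of chromosomes 3, 14 and 15 were 0.032, -0.017 and 0.0027, which that scaling sets near 0 by construction. No named gene changed direction under any alternative. All but the targets and Xist were chosen for a called difference or a small adjusted p, which made a reversal unlikely beforehand. Of the 44 named genes called, 44 passed without the Stc1-labelled libraries, 11 without WT replicate 1 or 2 and 5 without Rlim-labelled replicate 1 or 2.

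With the replicate number as a block 38 genes passed, 37 of them among the 182, as did 8 list members and 20 of the 44 named genes called. The labels share replicate numbers across groups, but nothing ties same-numbered libraries to a day or batch. The differences between replicate 1 and 2 correlated at 0.16 between the Pygo1-labelled and Rlim-labelled pairs, 0.17 between the Pygo1-labelled and WT pairs and 0.37 between the Rlim-labelled and WT pairs. They correlated at -0.20, -0.0039 and 0.011 between the Stc1-labelled pair and the Pygo1-labelled, Rlim-labelled and WT pairs. With 2 replicate numbers, correlations on both sides of 0 and no label for a shared batch, the numbers were not taken to pair the libraries. Low counts limit genes under 1 CPM most.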
